A study of Cervus nippon with 12 samples.

Results

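The miRNAs described here are those of the miR-10 and miR-196 families, chosen by name alone: every row named bta-miR-10 or bta-miR-196, with any letter or arm. Of the 545 names in each library, 3 fit this rule, namely bta-miR-10a, bta-miR-10b and bta-miR-196b. miR-196a was not analysed here. The values came from 12 libraries of small RNA from wild-type cells of the antler of adult male sika deer. Reserve mesenchyme cells (RMCs), the stem-like cells of the growing antler tip, were sampled before the change to chondrogenic medium in tubes (CP_0, day 0) and again on days 7 (CP_7) and 14 (CP_14), and chondrocytes (CC) cultured from antler cartilage formed the fourth group, each with 3 libraries. RMCs had been kept in medium with fetal bovine serum before induction. The labels do not say whether libraries of one group came from separate animals, so p-values measure the spread between these libraries, which may in part be technical.

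The genes of both families sit inside the Hox clusters, the rows of homeobox genes that give cells along the body axis and the limbs their positional identity. miR-10a lies near HOXB4, miR-10b near HOXD4 and miR-196b between genes of the HOXA cluster, and each is generally transcribed with its Hox neighbours. Mature miRNAs pair through their seed with target mRNAs and lower their output, and Hox mRNAs are among the known targets of both families. miR-10b is best known from migrating tumour cells, and miR-10a from blood and endothelial cells.

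The deposited level of a miRNA is its reads scaled to a library total of 1000000 miRNA reads (RPM). Depth ran from 539455 to 1032029 reads in the CP_7 libraries, from 2791559 to 4097304 in those of CP_0 and CP_14 and from 9714090 to 10256572 in CC. Because miRNA composition differed between groups, RPM values were also divided by TMM factors, which place the bulk of the miRNAs at a common level. These factors were between 1.68 and 2.09 in CP_7 and between 0.56 and 1.02 in the other groups, so RPM and TMM-normalized RPM differ most for CP_7 and CC. The cartilage miRNAs miR-140 and both arms of miR-455 had reads in every library, including those of day 0, with a summed level of 9043 to 11415 RPM. This sum is mostly miR-140 and overlapped between groups, whereas after TMM normalization it was 16883 to 18399 in CC, 9851 to 11399 in CP_0 and CP_14, and 5083 to 5764 in CP_7. In RPM miR-455-5p stood at 312.8 to 335.2 in CC, 185.1 to 231.1 in CP_0 and CP_14, and 480.1 to 513.6 in CP_7. The other arm, miR-455-3p, stood lower in CC (28.8 to 34.6) than in CP_14 (41.6 to 51.9), with 20.9 to 26.1 in CP_0 and 133.5 to 140.5 in CP_7. After TMM normalization it was not called for CC against CP_14 (log2 fold change 0.19, adjusted p = 0.20 by limma). Defining mRNA markers of chondrocytes were not analysed here.

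The muscle list (4 names) summed to 4536 to 6633 RPM in CP_7 and to 535.5 to 1756 RPM elsewhere, the epithelium list (6 of 7 names listed) to 3.90 to 46.2 RPM, and the liver and serum miRNA miR-122 to 3.09 to 79.7 RPM.

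Libraries stood apart within CP_0 and within CP_7. In CP_0 replicate 3 the blood miRNA list (7 names) summed to 4223 RPM, against 17.2 and 14.4 in the other CP_0 libraries, mainly through miR-451 and miR-486, which mark red blood cells. miR-223, miR-142-5p and miR-150 were also higher there. The list was not uniform, since miR-144 had 0 reads there against 1 and 1 in the other CP_0 libraries, and miR-142-3p had 0 against 4 and 2. In CP_7 replicate 3, the shallowest library, 6 of 223 miRNAs (a mean of 10 reads over all libraries and 10 in some CP_7 library) were at least 4 times above both other CP_7 libraries and 1 was at least 4 times below both. miR-10a and miR-10b were among those 6. By the same count CP_7 replicate 1 had 8 above and 2 below, CP_7 replicate 2 had 0 above and 3 below, and CP_0 replicate 3 had 7 of 240 above and 0 below. Results that rest on these libraries are given with and without them.

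Both miR-10 members were present in all 12 libraries at a low level, whereas miR-196b was at the edge of detection. The 3 members together took between 0.0037% and 0.055% of the reads of a library. miR-10b was the more abundant of the pair in 10 of 12 libraries, the exceptions being CP_14 replicates 1 and 2. In both miRNAs the highest value of all 12 libraries was that of CP_7 replicate 3, on the RPM scale and after TMM normalization.

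miR-10a had 59, 79 and 115 reads in the CP_0 libraries, or 19.8, 19.3 and 31.6 RPM. In CP_7 it had 21, 20 and 108 reads, or 27.3, 19.4 and 200.2 RPM. Thus the CP_7 libraries did not form a group for miR-10a: replicate 3 was 8.58 times the mean of the other 2 and 6.33 times the highest value of the remaining 11 libraries. In CP_14 miR-10a had 85, 73 and 86 reads, or 30.4, 24.1 and 22.3 RPM. In CC it had 93, 100 and 113 reads, or 9.07, 10.3 and 11.3 RPM, below every other library on this scale. After TMM normalization over the 12 libraries, miR-10a had a mean of 27.0 ± 8.6 (SD, n = 3) in CP_0 and 40.3 ± 48.0 in CP_7. The CP_14 mean was 25.7 ± 3.5 and that of CC was 16.9 ± 0.64. The order of these means, CP_7, CP_0, CP_14 and CC, depends on CP_7 replicate 3, without which the CP_7 mean was 12.6 and the lowest of the 4. In RPM, however, that mean was 23.3, beside 23.6 in CP_0, 25.6 in CP_14 and 10.2 in CC. CP_0 and CP_14, neighbours in this order, overlapped.

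miR-10b had 130, 166 and 150 reads in CP_0, or 43.7, 40.5 and 41.2 RPM, the most even values of any group. In CP_7 it had 27, 66 and 186 reads, or 35.1, 64.0 and 344.8 RPM, with replicate 3 again far above, at 6.96 times the mean of the other 2. In CP_14 it had 83, 69 and 140 reads, or 29.7, 22.8 and 36.2 RPM. In CC it had 328, 287 and 256 reads, or 32.0, 29.5 and 25.7 RPM, values that overlap those of CP_14. After TMM normalization the mean level was 47.7 ± 0.55 (SD, n = 3) in CP_0 and 73.5 ± 79.7 in CP_7. It was 30.0 ± 8.3 in CP_14 and 48.7 ± 8.9 in CC. CC and CP_0, which are neighbours in this order, did not differ beyond their spread. Without replicate 3 the CP_7 mean was 27.8 after TMM normalization, the lowest of the 4, but 49.5 in RPM, the highest of the 4.

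**Figure D1:**
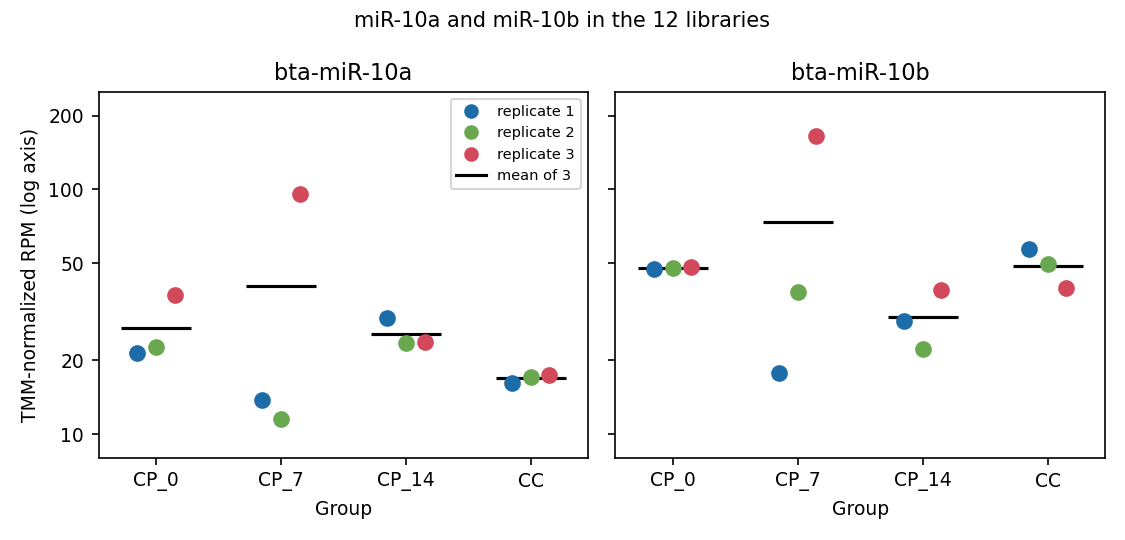
TMM-normalized RPM (log axis) of miR-10a (left) and miR-10b (right) in each of the 12 libraries by group, with points coloured by replicate number and a bar at the mean of 3. CP_7 replicate 3 lies at 95.7 for miR-10a and 164.8 for miR-10b, above all other libraries, while the other CP_7 libraries lie at 13.8 and 11.5 for miR-10a and at 17.7 and 38.0 for miR-10b.

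miR-196b had 5 reads in all: 2 and 1 in CP_0 replicates 2 and 3, and 1 each in CP_7 replicates 2 and 3. No read of it was found in CP_0 replicate 1, CP_7 replicate 1 or any library of CP_14 and CC. Pooled within groups this is 0.28 RPM in CP_0 (95% exact Poisson interval 0.058 to 0.82) and 0.85 RPM in CP_7 (0.10 to 3.09). A count of 0 allows up to 0.31 RPM over the CP_14 libraries and 0.10 RPM over those of CC, taking 3 reads as the limit. These intervals and limits cover counting error only, since the labels name no molecular identifiers and several reads may stem from the same molecule. The intervals of CP_0 and CP_7 overlap, so a difference between them was not detectable at this depth. miR-196b did not pass the filter on low counts in any comparison and was not tested.

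Groups were compared in pairs on log2(TMM-normalized RPM + 1) with limma, over every miRNA that passed the filter, and a miRNA was called at an adjusted p below 0.05. The added 1 RPM makes fold changes of scarce miRNAs look smaller than they are. The 6 pairs share groups and are not independent of each other. In each of them 2 of the 3 members were tested. In bulk samples, fewer cells of a type and less RNA per cell cannot be told apart.

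From day 0 to day 7, neither miR-10a nor miR-10b was called by limma, whereas 63.8% of the 246 miRNAs tested were (35.8% higher and 28% lower). The log2 fold change was -0.012 for miR-10a (95% interval -1.82 to 1.79, adjusted p = 0.99) and 0.070 for miR-10b (-1.59 to 1.73, adjusted p = 0.94). No member reached an unadjusted p below 0.05, and edgeR and DESeq2 on the recovered reads also called 0. The width of these intervals comes with the spread of CP_7. Without CP_7 replicate 3 both were lower after TMM normalization at day 7 than at day 0, by -1.04 for miR-10a (adjusted p = 0.027 by limma) and -0.89 for miR-10b (adjusted p = 0.039). That library was the highest of CP_7 in both members, so leaving it out lowers their day 7 means by construction. These p-values take no account of that choice. The remaining CP_7 libraries did not overlap CP_0 in either member. With all libraries 67.9% of miRNAs showed no overlap, a stricter condition because it takes in 1 more CP_7 library. In RPM the decrease of the members was not seen, since without CP_7 replicate 3 miR-10a was at 23.3 at day 7 against 23.6 at day 0, and miR-10b at 49.5 against 41.8. With CP_0 replicate 3 left out as well, the changes were -0.80 (adjusted p = 0.049 by limma) and -0.88 (adjusted p = 0.090). With all libraries, on the RPM scale without TMM factors, the median miRNA rose by 1.12 (log2) at day 7, and the changes of miR-10a (1.02) and miR-10b (1.12) lay close to that shift. For the members this closeness rests on CP_7 replicate 3, since without that library their RPM means were those given above (23.3 against 23.6, and 49.5 against 41.8).

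From day 7 to day 14 no member was called by limma, edgeR or DESeq2, and none had an unadjusted p below 0.05, against 52.8% of 246 miRNAs called by limma (24.4% higher, 28.5% lower, and 62.2% without overlap). miR-10a changed by -0.049 (log2, 95% interval -1.84 to 1.74) and miR-10b by -0.79 (-2.52 to 0.95). Without CP_7 replicate 3, the highest CP_7 library for both members, miR-10a was higher at day 14 (0.98, adjusted p = 0.018 by limma). miR-10b then changed by 0.17 (adjusted p = 0.72 by limma). Again these p-values take no account of the choice of that library. In RPM the corresponding means were 25.6 at day 14 against 23.3 for miR-10a and 29.6 against 49.5 for miR-10b.

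Over the full 14 days miR-10b fell and miR-10a did not pass the threshold, in a comparison without the CP_7 libraries. Of the 250 miRNAs tested, 46% were called, 24.8% as higher and 21.2% as lower. miR-10b decreased by 0.67 on the log2 scale (95% interval -1.13 to -0.20, adjusted p = 0.028 by limma), and every CP_14 library lay below every CP_0 library, as was the case without overlap for 56.4% of all miRNAs. This call was lost without CP_0 replicate 1 (adjusted p = 0.081), CP_0 replicate 2 (0.074), CP_14 replicate 1 (0.064) or CP_14 replicate 2 (0.053), although the fold change stayed between -0.89 and -0.52 with each library left out. It was also lost in RPM (-0.51, adjusted p = 0.052 by limma), in a joint fit of all 12 libraries (-0.68, adjusted p = 0.37) and in one of 11 without CP_7 replicate 3 (-0.67, adjusted p = 0.052). miR-10a changed by -0.017 (log2, 95% interval -0.54 to 0.51, adjusted p = 0.95 by limma), with 23.6 to 29.8 TMM-normalized RPM in CP_14 inside the 21.4 to 36.9 of CP_0. The blood list was at 3508 to 5200 RPM in CP_14, against 14.4 to 4223 in CP_0, and its part in these values was not tested.

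Between chondrocytes and induced cells of day 14, the members moved in opposite directions. Here 74.6% of 276 miRNAs tested were called, 37.7% as higher and 37% as lower. miR-10a was lower in CC by 0.57 (log2, 95% interval -0.92 to -0.21, adjusted p = 0.0092 by limma) and miR-10b was higher by 0.68 (0.22 to 1.14, adjusted p = 0.013). The groups did not overlap for either, as for 78.6% of all miRNAs, and both were called with each library left out, at -0.63 to -0.47 for miR-10a and 0.49 to 0.86 for miR-10b. A joint fit of all 12 libraries, which shares the spread of CP_7 replicate 3 with every group, called neither. The rise of miR-10b depends on the TMM factors: as deposited, in RPM, it stood at 29.1 ± 3.2 (SD, n = 3) in CC and 29.6 ± 6.7 in CP_14, a log2 fold change of -0.0065 (adjusted p = 0.98 by limma). miR-10a was lower in CC on that scale too, by -1.24 (adjusted p = 0.00010 by limma), against a median of -0.54 over all miRNAs tested. Neither TMM-normalized change reached 2-fold.

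Against uninduced RMCs (CP_0), chondrocytes had less miR-10a and a level of miR-10b that did not pass the threshold. Of 260 miRNAs, 55.8% were called, 30% as higher and 25.8% as lower. miR-10a was lower in CC by 0.71 (log2, 95% interval -1.25 to -0.18, adjusted p = 0.031 by limma), with no overlap between groups, as for 63.1% of all miRNAs. It lost the call when any CC library was left out (adjusted p = 0.068 to 0.082), and the fold change was -0.47 without CP_0 replicate 3, where it remained called. A joint fit of all 12 libraries did not call miR-10a either. miR-10b changed by -0.11 (log2, 95% interval -0.44 to 0.21, adjusted p = 0.50 by limma). In RPM both were lower in CC and called, at -1.10 and -0.52, where the median miRNA changed by -0.33.

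In CC against CP_7, 67.4% of 276 miRNAs were called (29% higher, 38.4% lower, and 70.7% without overlap), but neither member was by limma, edgeR or DESeq2. The log2 fold changes were -0.81 for miR-10a (95% interval -2.61 to 0.995) and -0.28 for miR-10b (-1.99 to 1.44), and no unadjusted p was below 0.05. Without CP_7 replicate 3 both had the opposite sign, 0.37 (adjusted p = 0.24 by limma) and 0.83 (adjusted p = 0.091). This change of sign was not seen in RPM, where both stayed lower in CC without that library, at 10.2 against 23.3 for miR-10a and 29.1 against 49.5 for miR-10b.

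**Figure D2:**
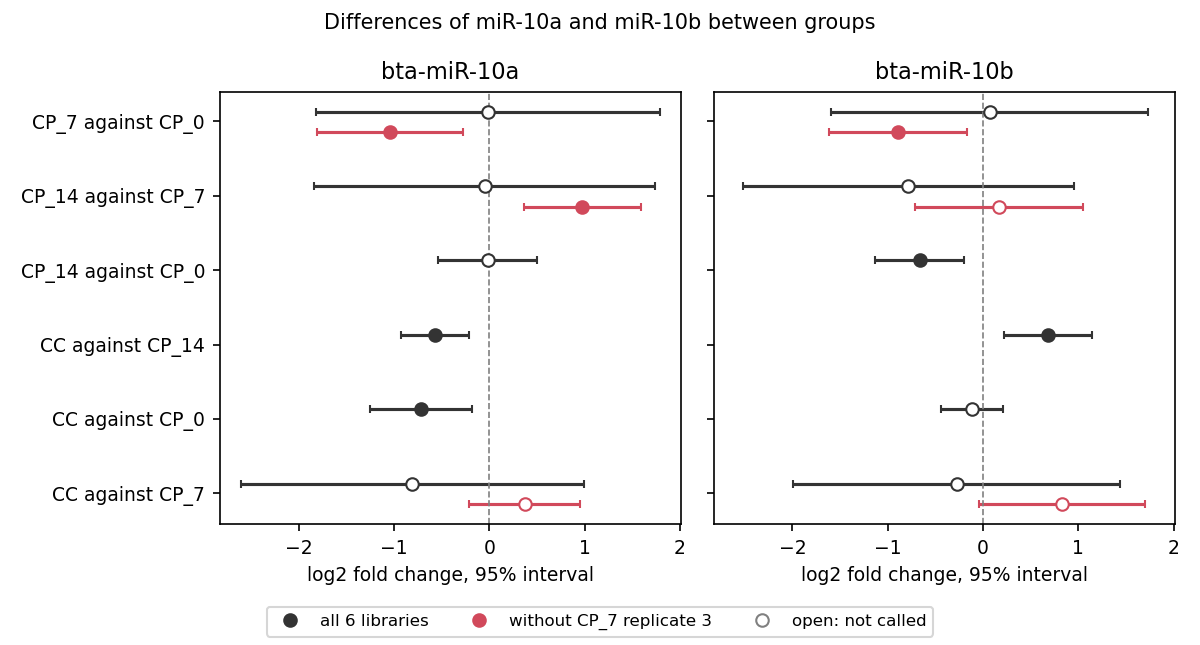
Log2 fold change of TMM-normalized values with its 95% interval from limma for miR-10a (left) and miR-10b (right) in the 6 comparisons. Black points use all 6 libraries of a comparison. Red points leave out CP_7 replicate 3, the highest CP_7 library for both miRNAs. Filled points were called at an adjusted p below 0.05, which for red points takes no account of that choice. Black intervals are widest where CP_7 takes part. The red points of miR-10a lie at -1.04 (day 7 from day 0) and 0.98 (day 14 from day 7).

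The ratio of miR-10a to miR-10b within a library does not depend on composition factors, although the near-identical sequences of the pair could let the authors' counting split reads between them. miR-10a made up 31.2%, 32.2% and 43.4% of the miR-10 reads in CP_0, 43.8%, 23.3% and 36.7% in CP_7, 50.6%, 51.4% and 38.1% in CP_14, and 22.1%, 25.8% and 30.6% in CC. CP_7 replicate 3, high in both members, was between the other CP_7 libraries in this share (95% Wilson interval 31.4% to 42.4%, counting error only). The mean share was 46.7% ± 7.5 (SD, n = 3) in CP_14 and 26.2% ± 4.3 in CC, and these groups did not overlap. With 0.5 reads added to each count, the log2 ratio averaged -0.86 ± 0.42 in CP_0 and -0.94 ± 0.69 in CP_7. It averaged -0.19 ± 0.44 in CP_14 and -1.50 ± 0.32 in CC. CC was below CP_14 by 1.31 (difference -1.31) and below CP_0 by 0.64 (difference -0.64), each with an exact two-sided permutation p = 0.1, the smallest that 3 libraries against 3 allow, and 0.3 after Benjamini-Hochberg adjustment over the 6 pairs. The other 4 pairs overlapped, with exact p between 0.2 and 1. Over all 4 groups the exact permutation test of the F statistic gave p = 0.083 (369600 arrangements), so the ratio did not pass the 0.05 threshold. It did without CP_7 replicate 1 (exact p = 0.048) or CP_7 replicate 2 (exact p = 0.023).

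**Figure D3:**
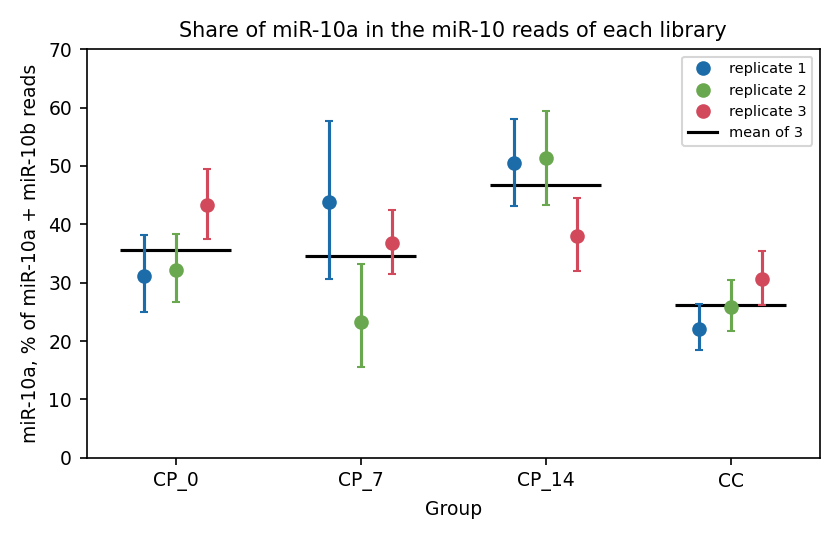
Share of miR-10a in the sum of miR-10a and miR-10b reads (percent, axis from 0) in each library, with the 95% Wilson interval as error bars and the group mean as a line. CC has the lowest mean, with libraries at 22.1% to 30.6%, and CP_14 the highest, at 38.1% to 51.4%. CP_7 replicates 1 and 2 have wide intervals and hold few reads.

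The 6 miRNAs that were at least 4 times higher in CP_7 replicate 3 than in both other CP_7 libraries were miR-126-3p, miR-10a, miR-183, miR-10b, miR-182 and miR-133b. All except the miR-10 pair were named after their values were seen. miR-126-3p, the miRNA best known from endothelial cells, had 143, 333 and 1658 reads in the 3 CP_7 libraries, or 185.8, 322.7 and 3073 RPM. Its other arm, miR-126-5p, which completes the endothelium list, had 2, 0 and 5 reads. miR-183 and miR-182, which come from one cluster and are known from sensory and epithelial cells, had 0, 4 and 13 and 7, 4 and 24 reads. The muscle miRNA miR-133b had 4, 17 and 37 reads, while miR-206, also of muscle, had 263, 7 and 0. Among the 223 miRNAs ranked by the ratio of CP_7 replicate 3 to the mean of the other 2, miR-10a was in position 3 and miR-10b in position 4. The blood list was low in this library (59.3 RPM, against 23.4 and 162.8), and miR-144 and miR-223 of that list were at 0 in all 3 CP_7 libraries. The part of these miRNAs in the miR-10 values was not tested.

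**Figure D4:**
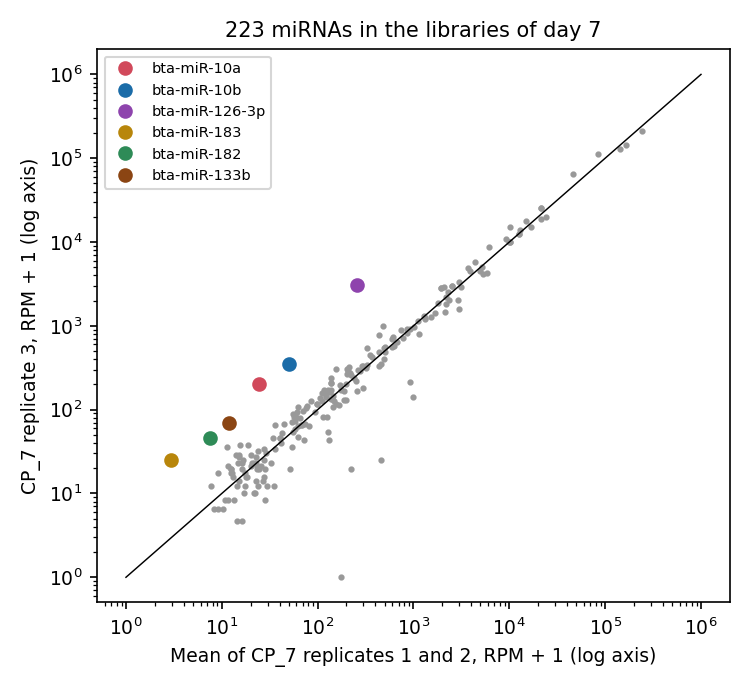
RPM + 1 of 223 miRNAs in CP_7 replicate 3 against the mean of CP_7 replicates 1 and 2 (both log axes), with the line of equal values and 6 coloured miRNAs. Most miRNAs follow the line, while miR-10a (8.58 times) and miR-10b (6.96 times) lie above it together with miR-126-3p, miR-183, miR-182 and miR-133b.

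In another set of libraries the reads of miR-10a varied little, but depth there went with group. miR-451 had between 6039 and 6933 reads in 7 libraries (CP_0 replicate 3 and all libraries of CP_14 and CC) and 2 to 29 in the other 5. This set of 7 was formed after the data were seen, by the level of miR-451, so the values of miR-451 and of miR-486, which follows it, describe that choice. Across it depth varied 3.67-fold, with 2791559 to 3864900 reads in CP_0 replicate 3 and CP_14 and 9714090 to 10256572 in CC. Depth and group thus cannot be told apart in this set. miR-10a had 73 to 115 reads, a coefficient of variation of 16.2% in reads and 48.4% in RPM. With the deepest libraries all from CC, these even reads are the same observation as the lower RPM of miR-10a in CC. Over the 246 miRNAs that averaged at least 10 reads in both the 12 and the 7 libraries, the median coefficients were 46.5% in reads and 38.1% in RPM. Apart from miR-451 and miR-486, the miRNAs that varied less in reads than miR-10a were miR-200a, miR-182, miR-34c and miR-652. miR-10b behaved otherwise, with 69 to 328 reads, 54.6% in reads and 20.1% in RPM. In CC against CP_14, of the 5 blood miRNAs tested 4 were lower and none higher, where 37% of 276 miRNAs were lower and 37.7% higher. miR-451 stood at -0.89 and miR-486 at -0.87 (log2), beside the -0.57 of miR-10a. Among the other marker lists, 4 of 4 muscle miRNAs, 3 of 5 of epithelium, 1 of 2 of endothelium and miR-122 (-1.63) were also lower. Of the 3 cartilage miRNAs, 2 were higher and none lower. The part of these patterns in the lower miR-10a of CC was not tested.

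**Figure D5:**
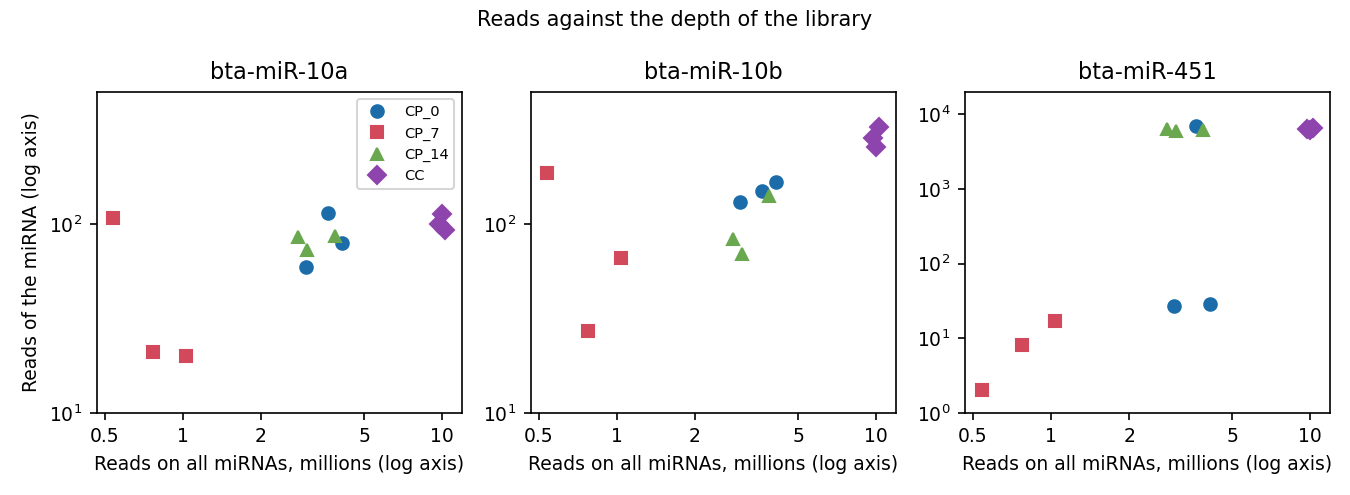
Reads of miR-10a, miR-10b and miR-451 against the reads on all miRNAs of the library, in units of 1000000 (log axes), with symbols by group. miR-451 lies at 6039 to 6933 reads in 7 libraries, miR-10a at 73 to 115 in the same 7, and miR-10b rises to 256 to 328 in the CC libraries.

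The miR-99 and miR-100 genes descend from the same ancestor as miR-10 but lie outside the Hox clusters. Of the 4 names on this list 3 were tested in each comparison, and all 3 were called in each of the 6, where 46% to 74.6% of all miRNAs were. miR-99a-3p had 0 to 17 reads and was not tested. miR-100, the most abundant of them, averaged 31040 ± 361 TMM-normalized RPM (SD, n = 3) in CP_0 and 8294 ± 727 in CP_7. It averaged 17406 ± 138 in CP_14 and 37560 ± 1222 in CC. In RPM, however, miR-100 was lower in CC than in CP_0 (22652 against 27235). The same held for miR-99a-5p (1939 against 2281) and miR-99b (1348 against 1486), although all 3 were called higher after TMM normalization. miR-99a-5p rose from day 0 to day 7 (log2 fold change 1.48, adjusted p = 3.4e-06 by limma), where miR-100 fell (-1.86) and miR-99b fell (-0.78), although in RPM miR-99b was higher at day 7 (1821 against 1486). In CC against CP_14 the 3 were higher, with a median of 0.995 against 0.086 over all miRNAs tested, except that miR-99b was lower in RPM (1348 against 1965). From day 0 to day 14 miR-100 fell (-0.82) and miR-99a-5p fell (-0.68), beside -0.67 for miR-10b, and miR-99b rose (0.24). Differences between these miRNAs and miR-10 were not tested. In CP_7 replicate 3 miR-100 stood at 18011 RPM, against 14765 and 14841 in the other CP_7 libraries. miR-99a-5p stood at 14036 RPM against 13414 and 12673, and miR-99b at 1893 against 1780 and 1790. In RPM all 3 were thus somewhat above both others there, without the 4-fold gap of miR-10a and miR-10b. The TMM factor of that library was also the highest of CP_7 (2.09, against 1.98 and 1.68). After TMM normalization none of the 3 was above both others.

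The miR-125 genes lie in clusters with miR-99, miR-100 and let-7. Of the pair tested, miR-125a rose (0.46) and miR-125b fell (-0.52) from day 0 to day 7, and both were higher in CC than in CP_14 (0.62 and 0.89). In RPM the direction flipped for miR-125b at day 7 (3091 against 2110) and for miR-125a in CC (309.7 against 331.5). The let-7 family, whose seed overlaps that of miR-196 with a shift of a single base, was listed under 10 names, all tested. At day 7 against day 0, 9 rose and none fell (35.8% and 28% of all miRNAs), with a median of 0.88 against 0.075 over all miRNAs tested. From day 7 to day 14 all 10 fell, with a median of -0.95 against -0.0089 over all miRNAs, of which 28.5% fell. let-7i, its most abundant member, stood at 59067 ± 2696 TMM-normalized RPM (SD, n = 3) in CP_0, where miR-196b was at 0.30 ± 0.29. let-7c rose most at day 7 (2.03). miR-615, another miRNA of a Hox cluster, was not analysed here.

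Across the 12 libraries, the miRNAs with the pattern most like miR-10a, among 250 others averaging at least 10 reads, were miR-183 (Pearson r = 0.83), miR-10b (0.68) and miR-126-3p (0.66). Those most like miR-10b were novel_74 (0.71), miR-10a (0.68) and miR-183 (0.63). The likeness of miR-10a to miR-10b and to miR-126-3p, and of miR-10b to miR-183, rested largely on CP_7 replicate 3. Without that library, r was 0.12 between miR-10a and miR-10b, -0.44 between miR-10a and miR-126-3p and 0.33 between miR-10b and miR-183. For the closest miRNA to each member r was then 0.75 (miR-10a with miR-183) and 0.73 (miR-10b with novel_74). Both had been picked with CP_7 replicate 3 included. Their counts are low, at 0 to 18 reads in a library for miR-183 and 8 to 94 for novel_74. These are descriptions on TMM-normalized log2 values of libraries that share normalization factors and group structure.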

How the data were processed

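The authors deposited 1 table per library with RPM values under the header tpm, in which the listed miRNAs of a library sum to 1000000 without division by length. Per the labels, small RNA was prepared with a NEBNext kit, and the submitters' processing notes name CASAVA, bcl2fastq 1.8.4 and Bowtie. For the counter, filters and miRNA database the sources used here give no name. Cattle names serve for deer reads. A miR-10a read and a miR-10b read are near identical, so the authors' counting may split reads between them.

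Reads were recovered by dividing each value by that of 1 read (100% whole within 0.01 read). Pairs of libraries of a group differed by a chi-square of at least 4.92 per degree of freedom, so none was counted as a copy. limma 3.58.1 with an intensity trend was fitted to the 6 libraries of each pair of groups on log2(TMM-normalized RPM + 1), after edgeR's filterByExpr (minimum count 10, total 15), with Benjamini-Hochberg adjustment over all miRNAs tested. R 4.3.3, edgeR 4.0.16, DESeq2 1.42.0, Python 3.11.15 and scipy 1.17.1 were used. Levels by library use TMM factors over 12 libraries. Simulated counts with known changes tested the fit.

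Members and lists were chosen with earlier results of these data known. All members were named. The rule for other names was fixed lists (miR-99/100, miR-125, let-7, miR-615, markers), of which the most abundant and the largest rise and fall were given, and the 3 miRNAs most like each member. Marker lists of blood, endothelium, muscle, epithelium, liver and cartilage served as checks. The alternatives were RLE factors, library size only, pseudocounts of 0.5 and 5 RPM, no filter, edgeR, DESeq2, a joint fit of the 12 libraries, a block for the replicate number, a threshold of 2-fold and leaving out each library, and for the ratio no pseudocount or 1 read.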

Additional observations from a re-analysis of the deposited data

How the results depend on the processing

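Leaving out CP_7 replicate 3 changed the calls between day 7 and the other days. For CC against CP_7, 0 members were called with any library left out, where 145 to 188 of all miRNAs were. Without CP_7 replicate 3, 2 members were called between CP_7 and CP_0 (range 0 to 2 over the libraries left out) and 1 between CP_14 and CP_7 (0 to 1). Over all miRNAs the calls then ranged from 130 to 168 for CP_7 against CP_0 and from 89 to 137 for CP_14 against CP_7. With no library left out, 246 miRNAs were tested in each of these. The range of members called was 0 to 1 for CP_14 against CP_0 (96 to 138 over all miRNAs) and for CC against CP_0 (118 to 163). The log2 fold change of miR-10a ranged from -1.04 to 0.34 for CP_7 against CP_0, from -0.51 to 0.98 for CP_14 against CP_7, from -0.15 to 0.21 for CP_14 against CP_0 and from -0.84 to 0.37 for CC against CP_7. That of miR-10b ranged from -0.89 to 0.54, from -1.41 to 0.17, from -0.89 to -0.52 and from -0.60 to 0.83 in the same order, and from -0.23 to 0.019 for CC against CP_0. The p of the ratio over 4 groups (exact permutation) ranged from 0.023 to 0.18.

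Chosen after seeing the data, leaving out CP_0 replicate 3 and CP_7 replicate 3 together gave 1 member called between CP_7 and CP_0, with miR-10b at -0.88. One fit of 11 libraries without CP_7 replicate 3 called 2 members there (miR-10b at -0.83), 1 between CP_14 and CP_7 (miR-10a 0.96, miR-10b 0.16), 0 between CP_14 and CP_0, and 1 between CC and CP_7 (miR-10a 0.38, miR-10b 0.85), with miR-10b at 0.022 for CC against CP_0. All 12 libraries in one fit, which shares the spread of CP_7 replicate 3 with every group, called 0 members for CP_14 against CP_0, CC against CP_14 and CC against CP_0, with miR-10a at 0.023 for CP_14 against CP_7 and miR-10b at 0.012 for CC against CP_0. Calls over all miRNAs under these settings are not given here. The member counts therefore do not show whether the members changed apart from the other miRNAs.

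With at least 2-fold added, 0 members were called for CP_14 against CP_0, CC against CP_14 and CC against CP_0, and the calls over all miRNAs were 76 for CP_14 against CP_7 (130 without this condition), 48 for CP_14 against CP_0 (115), 98 for CC against CP_14 (206) and 51 for CC against CP_0 (145). With library size only, 0 members were called for CP_14 against CP_0 (miR-10a 0.14), 1 for CC against CP_14 (miR-10b -0.0065), 2 for CC against CP_0 and 1 for CC against CP_7, and miR-10a was 1.02 for CP_7 against CP_0. Over all miRNAs the calls higher and lower then went from 88 and 69 to 152 and 20 for CP_7 against CP_0, from 60 and 70 to 26 and 138 for CP_14 against CP_7, from 62 and 53 to 76 and 33 for CP_14 against CP_0, from 104 and 102 to 40 and 163 for CC against CP_14, from 78 and 67 to 30 and 112 for CC against CP_0, and from 80 and 106 to 20 and 191 for CC against CP_7. For CP_7 against CP_0 miR-10a was 0.041 with a pseudocount of 5 RPM, 0.63 with edgeR and 0.57 with DESeq2, and miR-10b was -0.029 with RLE factors. For CP_14 against CP_7 miR-10a was 0.0067 with RLE factors. The cause was not tested where no library is named.

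The replicate numbers of the labels name no shared animal or day, and deviations of same-numbered libraries correlated between -0.35 and 0.18. With the number as a block the members called were unchanged, with miR-10b at an adjusted p = 0.042 for CP_14 against CP_0 by limma. With 20 to 66 reads of miR-10a or miR-10b in CP_7 replicates 1 and 2, and 0 or 1 of miR-196b in each CP_7 library, counting error is large there. In CP_7 replicate 3 the members had 108 and 186 reads, with exact 95% intervals of 164.2 to 241.7 RPM for miR-10a and 297.0 to 398.1 RPM for miR-10b. Those of the other CP_7 libraries reached no higher than 41.7 and 81.4 RPM.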
